A study of Mus musculus with 16 samples.

Results

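The 10 genes described here are reactive astrocyte genes: Gfap, Vim, Nes, Serpina3n, Lcn2, Cd44, Stat3, Osmr, S1pr3 and Sox9. They were taken by gene symbol from the deposited tables of 24411 mouse genes, and all 10 were found there. All 10 were also among the 16091 genes tested, which had a mean above 1 TPM (read counts scaled for transcript length and for the sum over the library) in at least 1 condition. The RNA came from spinal cord of female C57BL/6J mice in 3 groups. SCI + Vehicle (n = 7) and SCI + Atorvastatin (n = 7) mice had a lateral compression spinal cord injury (SCI) at 12 wk of age, made with a gap of 0.25 mm at vertebrae T8 to T9. From 2 wk after injury they received, each day for 4 wk, either atorvastatin at 10 mg/kg in a vehicle of DMSO, polyethylene glycol, Tween and saline, or that vehicle alone, and their cords were taken 6 wk after injury by the labels. The Uninjured Control group (n = 2) had neither injury nor treatment, and its mice were 12 wk old by the labels. The study's methods give these mice a later age at isolation than the labels, though still younger than the injured mice were then. A 5 mm piece of cord was used from each mouse, so each value is an average over all cells of that piece, and more cells of a type cannot be told apart from more RNA per cell.

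Astrocytes are the glial cells that support neurons and synapses, and after injury those near the lesion become reactive: they enlarge, build more intermediate filaments and form a border around the damaged tissue. Cytokines of the interleukin-6 family, such as oncostatin M, act through receptors that share the gp130 subunit, and JAK kinases then phosphorylate STAT3, a transcription factor needed for the formation of that border. GFAP, vimentin and nestin are the filament proteins by which reactive astrocytes are usually recognized, Serpina3n and lipocalin-2 are secreted by them, and SOX9 is a transcription factor of the astrocyte lineage. Several of these genes are also used by other cells, among them vimentin by fibroblasts and endothelium, CD44 by immune cells, and lipocalin-2 by neutrophils.

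The libraries held between 14823292 and 25579826 counts in SCI mice and 20211276 and 22368736 counts in the Uninjured Control mice, so depth was similar. The Uninjured Control libraries stood apart in another way, because fewer genes had any count in them, 12356 and 12732 against 16399 to 19338 in SCI mice. Among 3245 genes that averaged 200 to 500 counts over SCI mice, 13.9% and 17.6% were at 0 in Uninjured Control replicates 1 and 2, against at most 0.247% in any SCI mouse. Liver markers were also high in both, with a summed level over 9 genes of 6908 and 1392 TPM against 1.8 to 12.4 TPM in SCI mice, and all 9 were called lower in both SCI groups. The 12 general astrocyte markers, such as Aldh1l1, Slc1a2 and S100b, were present in every mouse, with a summed level of 5166 to 6469 TPM in SCI mice and 5322 and 5603 TPM in Uninjured Control mice. Single genes of that list moved both ways, with Aqp4 called higher and Kcnj10 called lower in both SCI groups. The part that these features of the Uninjured Control libraries have in the results below was not tested.

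Sequence around the start sites of the members was searched for motifs of factors known to act in reactive astrocytes. RefSeq promoter windows of GRCm38.p6, the assembly named mm10 in the submitters' processing notes, held 250 bases before and 50 bases from the start site for 9 of the 10 members, all but Sox9. The 300 bases were searched on both strands for TTCNNNGAA (the core that STAT proteins recognize), TGANTCA and TATAAA (the TATA box). TGANTCA is wider than the AP-1 core, which has C or G at its centre. No match overlapped another in these windows. Each pattern was found in 1 of 9 members, while 8.30%, 7.81% and 13.6% of all 32851 promoters held them. The 3 matches are printed on the strand of the gene, with the match in capitals and 10 bases on each side, because they place the searched letters relative to each start site.
Gfap, chr11:102897184-102897212, minus strand: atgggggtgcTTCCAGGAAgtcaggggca
Osmr, chr15:6874294-6874320, minus strand: gccccgtagtTGATTCAtagctggggc
Vim, chr2:13574269-13574294, plus strand: ctaacagtgtTATAAAagcagcgccc
The STAT core in Gfap ran from 2 bases before its start site to base 7 of the transcript. The TGANTCA match in Osmr covered bases 4 to 10 from the start site of that window, which lies inside the gene span given further on. That match has T at its centre, so it is not the AP-1 core itself. The TATA box in Vim lay 32 to 27 bases before its start site. These matches are a description of the windows, and no protein binding was measured.

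After injury, reactive astrocyte genes were higher than in the uninjured cord in nearly every case. Against Uninjured Control, 9 of 10 were called higher in SCI + Vehicle mice, where 19.8% of all genes tested were called higher, and 10 of 10 in SCI + Atorvastatin mice, where 24.9% were. No member was called lower, while 9.55% and 14% of all genes were. A gene was called when edgeR's quasi-likelihood test gave an adjusted p below 0.05 and its log2 fold change was past 0.32 in either direction. The 10 members had a median log2 fold change of 2.74 in SCI + Vehicle mice and 2.97 in those given atorvastatin, against 0.17 and 0.21 over all genes tested. Every SCI + Vehicle mouse lay above both Uninjured Control mice, in CPM (counts scaled to the normalized library total), for 9 of 10 members, a pattern shown by 24.8% of all genes. Every SCI + Atorvastatin mouse did so for 10 of 10 members, against 29.8% of all genes. S1pr3 had no counts in either uninjured mouse and was tested only because it was high in the SCI groups. Its place in these counts therefore adds nothing. With TPM above 1 required in every condition, 9 members were tested. Of these, 8 were called higher in SCI + Vehicle and 9 in SCI + Atorvastatin mice, beside 1261 and 1774 of 12559 genes. The 2 comparisons share their Uninjured Control mice. With only 2 of those mice, a fit that gave each group its own spread (voom with group weights) called 2 members in SCI + Vehicle mice, Gfap and Serpina3n, and 3 in SCI + Atorvastatin mice, Gfap, Vim and Serpina3n. Of all 16091 genes, that fit called 132 and 145, with 17 and 18 of them higher.

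**Figure D1:**
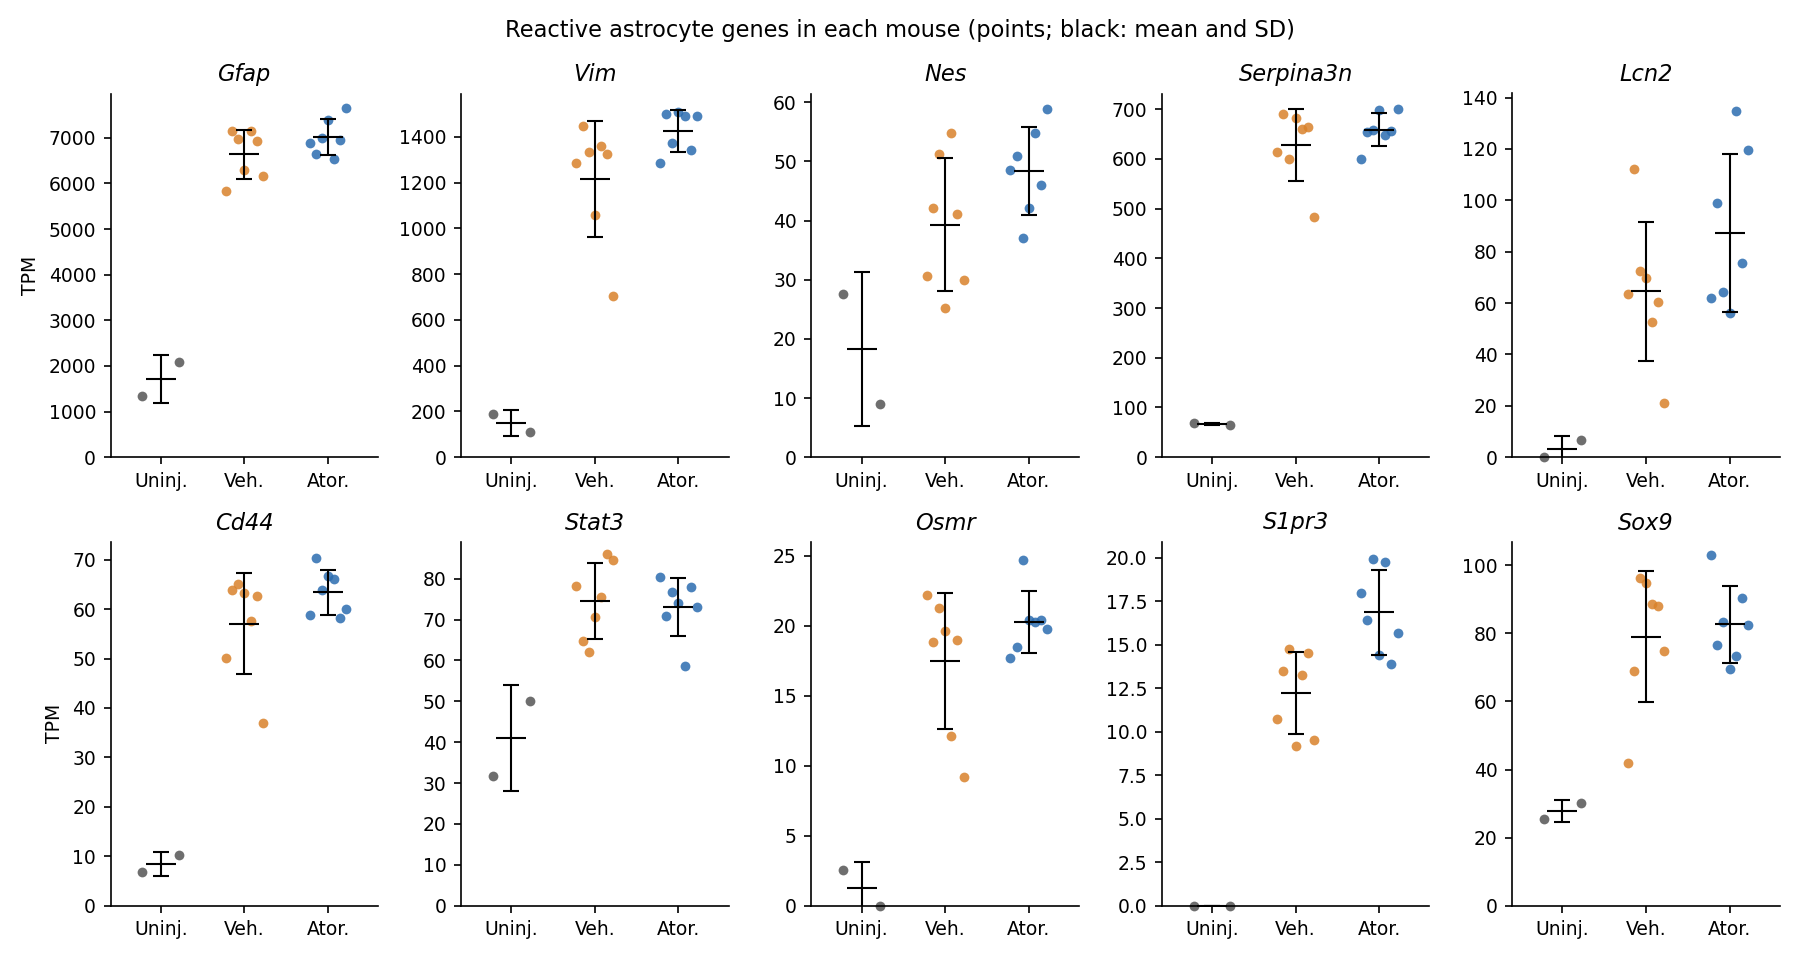
Level of each reactive astrocyte gene in TPM (y axis, linear and from 0) in the 2 Uninjured Control, 7 SCI + Vehicle and 7 SCI + Atorvastatin mice; each point is a mouse and the black marks are the mean and SD. The SCI mice lie above both uninjured mice in every panel but Nes, where 1 SCI + Vehicle mouse at 25.2 TPM lies below the uninjured mouse at 27.5 TPM.

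Among the filament genes, Gfap was the most abundant member by far. Gfap (chr11:102887336-102897200, minus strand) encodes glial fibrillary acidic protein, the main intermediate filament of astrocytes. Its level was 1340.0 and 2085 TPM in the Uninjured Control mice, had a lowest, median and highest value of 5840.0, 6918 and 7155 TPM in SCI + Vehicle mice, and of 6541, 6951 and 7647 TPM in SCI + Atorvastatin mice. No SCI mouse came near the uninjured pair. Gfap ranked 54th by mean TPM among all genes in the uninjured cord and 6th in both SCI groups, and took 0.611% to 0.752% of all counts in SCI mice against 0.165% and 0.220% in Uninjured Control mice. The fitted rise was 3.37-fold in SCI + Vehicle (95% interval 2.76 to 4.13, edgeR adjusted p = 2.63e-05) and 3.61-fold in SCI + Atorvastatin mice (3.00 to 4.33, adjusted p = 8.65e-06).

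Vim (chr2:13574311-13582826, plus strand) encodes vimentin, which polymerizes with GFAP in reactive astrocytes. Uninjured Control mice had 189 and 109 TPM of it. The lowest, median and highest values were 706, 1326 and 1448 TPM in SCI + Vehicle mice and 1288, 1490.3 and 1510.2 TPM in SCI + Atorvastatin mice. SCI + Vehicle replicate 7 was the lowest SCI mouse for Vim by a wide gap, since the next one, SCI + Vehicle replicate 4, had 1058 TPM. The rise was 7.25-fold in SCI + Vehicle (95% interval 4.41 to 11.9, edgeR adjusted p = 0.000190) and 8.63-fold in SCI + Atorvastatin mice (5.77 to 12.9, adjusted p = 2.89e-05). Because Vim rose by a larger factor than Gfap, the ratio of Gfap to Vim in TPM was 7.08 and 19.1 in the uninjured mice and 4.39 to 5.94 in 13 of 14 SCI mice, with 8.72 in SCI + Vehicle replicate 7.

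Nes (chr3:87971093-87980451, plus strand) encodes nestin, a filament protein of neural stem cells that mature astrocytes regain when reactive, and its change was the least certain of the members. The Uninjured Control mice differed 3-fold, at 27.5 and 9.04 TPM. SCI + Vehicle mice ranged from 25.2 through a median of 41.2 to 54.9 TPM and overlapped with them. SCI + Atorvastatin mice ranged from 37.0 through 48.5 to 58.8 TPM and did not. The log2 fold change was 0.90 ± 0.41 (SE) in SCI + Vehicle (edgeR adjusted p = 0.128) and 1.21 ± 0.39 in SCI + Atorvastatin mice (adjusted p = 0.0309). Without Uninjured Control replicate 1 the SCI + Vehicle difference was 2.09 and passed the limits, and without Uninjured Control replicate 2 it was 0.25 and did not. In SCI + Atorvastatin mice the call was lost without replicate 2, 5 or 7, at adjusted p up to 0.0538, while without Uninjured Control replicate 1 the difference was 2.41 (adjusted p = 9.38e-07) and without Uninjured Control replicate 2 it was 0.56 (0.0303), the ends of its range over single mice left out. The difference between the 2 SCI groups itself is described further below.

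Both secreted members rose by a larger factor than Gfap. Serpina3n (chr12:104406646-104414334, plus strand) encodes a serine protease inhibitor, and it had the smallest error relative to its change of the members with counts in both uninjured mice. It stood at 68.4 and 65.2 TPM in the Uninjured Control mice, at 484, 660 and 691 TPM (lowest, median, highest) in SCI + Vehicle mice and at 600.3, 655 and 699.9 TPM in SCI + Atorvastatin mice. The lowest SCI mouse was again SCI + Vehicle replicate 7, and the next lowest SCI + Vehicle mouse had 599.6 TPM. The rise was 8.14-fold in SCI + Vehicle (95% interval 6.24 to 10.6, edgeR adjusted p = 1.64e-05, the third smallest p of all genes tested) and 8.65-fold in SCI + Atorvastatin mice (6.81 to 11.0, adjusted p = 3.10e-06). Serpina3n lies in a cluster of similar genes among which shared reads can be split. The 10 other genes of the cluster summed to 3.5 to 9.84 TPM in SCI mice but to 215 and 59.0 TPM in the Uninjured Control mice, where Serpina3k, a gene of liver, made up 214.8 and 53.1 TPM. Whether reads of that gene were counted in Serpina3n, or the reverse, was not tested.

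Lcn2 (chr2:32384637-32387739, minus strand) encodes lipocalin-2, an iron-siderophore binding protein of the acute response. In the uninjured pair it had 0 and 35 counts, or 0 and 6.67 TPM. Its lowest, median and highest values were 21.3, 63.4 and 112 TPM in SCI + Vehicle mice and 56.0, 75.6 and 135 TPM in SCI + Atorvastatin mice, the widest relative spread of any member (CV 41.8% and 35.4%). Every SCI mouse was above both uninjured mice. The fitted log2 fold change was 4.99 ± 1.09 (SE) in SCI + Vehicle (edgeR adjusted p = 0.00666) and 5.30 ± 1.00 in SCI + Atorvastatin mice (adjusted p = 0.00213). Because 1 of the 2 uninjured mice was at 0, the size rests on the other: against Uninjured Control replicate 2 alone it was 4.02 and 4.33. Of the 7 neutrophil markers in the files, 2 were called higher in each SCI group, near the 19.8% and 24.9% of all genes. In each group 1 of these had no counts in the uninjured mice, so its call adds nothing. The summed level of the 7 neutrophil markers, 115 and 209 TPM in the uninjured mice, was 126 to 834 TPM in SCI mice. The part of those cells in Lcn2 was not tested.

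The surface receptors were at or below 10.2 TPM in both uninjured mice. Cd44 (chr2:102811141-102901669, minus strand) encodes the receptor for the matrix polymer hyaluronan. Its level was 6.72 and 10.2 TPM in Uninjured Control mice, 37.0, 62.6 and 65.0 TPM (lowest, median, highest) in SCI + Vehicle mice and 58.2, 63.8 and 70.4 TPM in SCI + Atorvastatin mice. All 14 SCI mice exceeded both uninjured mice by a factor above 3. It rose 6.17-fold in SCI + Vehicle (95% interval 4.55 to 8.38, edgeR adjusted p = 2.77e-05) and 7.10-fold in SCI + Atorvastatin mice (5.61 to 9.00, adjusted p = 4.05e-06). Macrophages and microglia also carry CD44. Of 10 of their markers, 7 and 8 were called higher in SCI + Vehicle and SCI + Atorvastatin mice, beside 19.8% and 24.9% of all genes. Their summed level was 1834 to 3271 TPM in SCI mice against 172 and 245 TPM in the uninjured mice. Their part in the Cd44 level was not tested.

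Osmr (chr15:6813568-6874968, minus strand) encodes the subunit that joins gp130 to form the oncostatin M receptor. In the uninjured pair it had 135 and 0 counts, or 2.57 and 0 TPM. SCI + Vehicle mice had 9.22, 19.0 and 22.2 TPM (lowest, median, highest) and SCI + Atorvastatin mice 17.7, 20.3 and 24.7 TPM. All SCI mice were above both uninjured mice, but the disagreement of those mice made the error large. The log2 fold change was 3.48 ± 1.11 (SE) in SCI + Vehicle (edgeR adjusted p = 0.0378) and 3.63 ± 1.08 in SCI + Atorvastatin mice (adjusted p = 0.0230). The SCI + Vehicle call was lost when any 1 of its replicates 1 to 6 was left out, at adjusted p of 0.0540 to 0.0669, with a range of 1.29e-06 to 0.0669 over all single mice left out. Against Uninjured Control replicate 1 alone, the mouse with counts, the differences were 2.48 and 2.61.

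S1pr3 (chr13:51408618-51422797, plus strand) encodes a receptor for sphingosine 1-phosphate, and it was the member that went from nothing detected to a moderate level. Neither Uninjured Control mouse had a count. SCI + Vehicle mice had 9.16, 13.3 and 14.7 TPM (lowest, median, highest) and SCI + Atorvastatin mice 13.9, 16.4 and 19.9 TPM. In CPM without further normalization the SCI groups had 20.3 ± 3.62 and 28.1 ± 4.76 (SD, n = 7 each). A count of 0 allows up to 3 counts per library, or 0.148 CPM in the shallower uninjured library, so S1pr3 was at least 137-fold higher in SCI + Vehicle and at least 189-fold higher in SCI + Atorvastatin mice, as far as counting error goes (edgeR adjusted p = 2.27e-05 and 4.44e-06). These bounds stand beside the finding above that many genes well covered in SCI mice were at 0 in the same 2 uninjured libraries. S1pr3 was tested only because it was high in the SCI groups, so these p-values add no support.

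The transcription factors rose by smaller factors than Gfap. Stat3 encodes the factor that carries the gp130 signal to the nucleus. Stat3 (chr11:100886806-100939594, minus strand) had 31.8 and 50.2 TPM in Uninjured Control mice, 62.2, 75.5 and 86.1 TPM (lowest, median, highest) in SCI + Vehicle mice and 58.7, 74.0 and 80.5 TPM in SCI + Atorvastatin mice. The groups did not overlap, although the highest uninjured mouse was close to the lowest SCI mouse. Stat3 rose 1.70-fold in SCI + Vehicle (log2 fold change 0.77, 95% interval 0.38 to 1.16, edgeR adjusted p = 0.00838) and 1.66-fold in SCI + Atorvastatin mice (0.73, 0.45 to 1.01, adjusted p = 0.00129). STAT3 is mainly controlled by phosphorylation, which RNA does not show. Stat3 shares up to 143 exon bases with Stat5a on the opposite strand, and the strand setting of the counting is not given in the sources used here.

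Sox9 (chr11:112782210-112787757, plus strand) had 25.5 and 30.2 TPM in Uninjured Control mice. Its lowest, median and highest values were 42.0, 88.0 and 96.2 TPM in SCI + Vehicle mice and 69.6, 82.6 and 103 TPM in SCI + Atorvastatin mice. SCI + Vehicle replicate 1 was the low mouse, and it still lay above both uninjured mice. The rise was 2.28-fold in SCI + Vehicle (95% interval 1.54 to 3.38, edgeR adjusted p = 0.00605) and 2.40-fold in SCI + Atorvastatin mice (1.91 to 3.02, adjusted p = 0.000142).

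**Figure D2:**
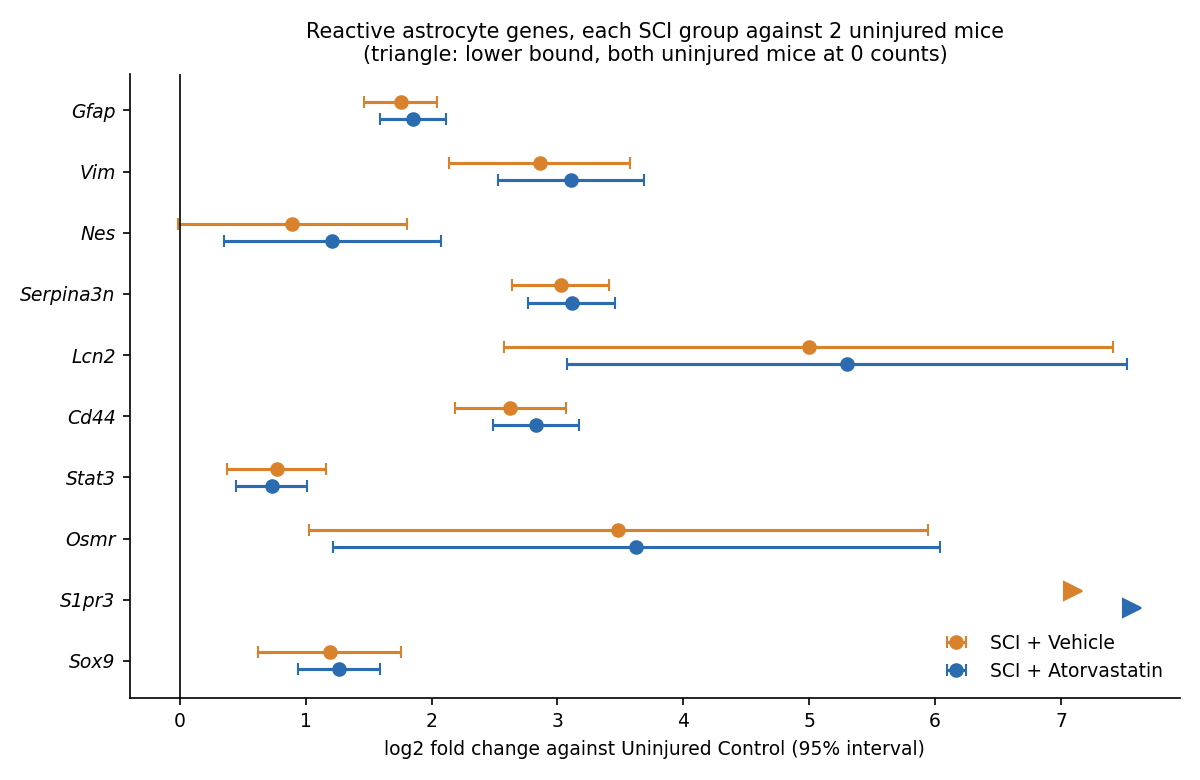
Fitted log2 fold change (x axis) of each member in SCI + Vehicle and SCI + Atorvastatin mice (n = 7 each) against the same 2 Uninjured Control mice, with 95% intervals; triangles mark lower bounds for S1pr3, which had 0 counts in both uninjured mice. Gfap, Serpina3n and Cd44 have narrow intervals, those of Lcn2 and Osmr are wide, and the Nes interval of SCI + Vehicle reaches 0.

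Between the treatments, no reactive astrocyte gene passed the limits of the study (0.001 for the unadjusted p and 0.32 for the log2 fold change in either direction), which 0.106% of all genes tested did. DESeq2 called no member either. The smallest adjusted p over all genes was 0.680 by edgeR, so none passed an adjusted limit either. The differences of the members were small and mostly positive, 9 of 10 above 0, with a median log2 fold change of 0.15 against -0.0014 over all genes, of which 48.7% were above 0. An unadjusted p below 0.05 was reached by 3 of 10 members, S1pr3, Nes and Vim, and by 7.03% of all genes.

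For 4 members the data bound the difference between the treatments to less than the limit of 0.32 in either direction. The 95% interval of the log2 fold change of SCI + Atorvastatin over SCI + Vehicle was -0.04 to 0.19 for Gfap, -0.09 to 0.22 for Serpina3n, -0.25 to 0.12 for Stat3 and -0.20 to 0.30 for Sox9. Mean Gfap was 7010.1 ± 391 TPM in SCI + Atorvastatin and 6639.8 ± 533 TPM in SCI + Vehicle mice (SD, n = 7 each), a fitted ratio of 1.05. The sign for Sox9 turned without SCI + Vehicle replicate 1, the low mouse, to -0.0453.

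For the other 6 members the interval reached past the limit. Cd44 (0.18, interval -0.02 to 0.38), Osmr (0.12, -0.19 to 0.43) and Lcn2 (0.29, -0.16 to 0.73) had intervals that included 0. Vim had a log2 fold change of 0.23 (0.0013 to 0.45, unadjusted p = 0.0488) and Nes of 0.29 (0.02 to 0.57, unadjusted p = 0.0391), each with 5 of 7 SCI + Atorvastatin mice above the SCI + Vehicle median. S1pr3 had the largest difference of the 10, 0.46 ± 0.14 (SE, interval 0.18 to 0.75, unadjusted p = 0.00267, adjusted p = 0.680 by edgeR), with 7 of 7 SCI + Atorvastatin mice above the SCI + Vehicle median and rank 48 by p among all genes. In normalized CPM, SCI + Atorvastatin replicates 1 to 7 had 27.9, 28.7, 34.3, 23.9, 34.1, 22.1 and 25.2 for S1pr3, and SCI + Vehicle replicates 1 to 7 had 21.5, 22.5, 22.4, 14.5, 19.1, 24.4 and 17.7. The groups overlapped, since 2 SCI + Atorvastatin mice, replicates 4 and 6, lay below the highest SCI + Vehicle mouse.

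SCI + Vehicle replicates 4 and 7 held little RNA of fibroblasts and Schwann cells, and they had the 2 lowest S1pr3 and Vim levels of all SCI mice. The summed level of the 6 fibroblast markers was 100.4 and 71.3 TPM in them, against 338 to 694 TPM in the other SCI + Vehicle mice and 452 to 1158 TPM in SCI + Atorvastatin mice. All 6 of these markers had an unadjusted p below 0.05 between the treatments, as did 7.03% of all genes, with a median log2 fold change of 0.94. None of them passed the limits of the study, and the smallest adjusted p of any gene was 0.680 by edgeR. The 4 Schwann cell markers summed to 11.9 and 2.22 TPM in the same 2 mice, against 92.5 to 219 TPM in the other SCI mice. With both mice left out, a comparison chosen after seeing the data, the log2 fold change fell to 0.35 for S1pr3 (unadjusted p = 0.0163), to 0.15 for Nes (0.199) and to 0.08 for Vim (0.256), and the adjusted p of each was 1.0 by edgeR. Those mice were the lowest of SCI + Vehicle for S1pr3 and Vim, and replicate 4 was the lowest for Nes. Leaving them out therefore lowers these differences by itself, whatever their content of fibroblasts. Over all alternatives the adjusted p of S1pr3 lay between 0.347 and 1.0. The part of fibroblasts in the 3 differences was not tested.

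**Figure D3:**
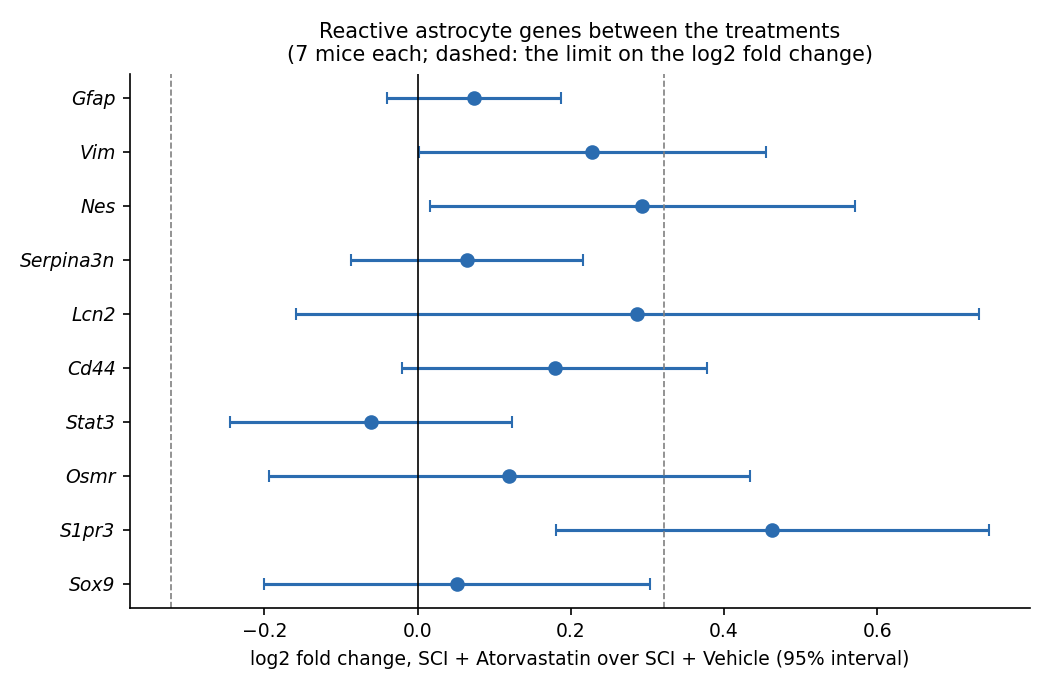
Fitted log2 fold change of SCI + Atorvastatin over SCI + Vehicle (x axis, 7 mice each) for each member, with 95% intervals; dashed lines mark the limit of 0.32 in either direction. Gfap, Serpina3n, Stat3 and Sox9 lie within the limit with their whole interval, and the intervals of Vim, Nes and S1pr3 lie above 0.

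Within the SCI groups the members did not vary as 1 block. Pearson's r was computed for all 45 pairs over the 14 SCI mice on log2 CPM centred within treatment group, with 100000 permutations of mice within groups. The median r was 0.21, 28 of 45 pairs were positive, and no pair passed an adjusted p of 0.05, the smallest being 0.127 (10 pairs had an unadjusted p below 0.05, and none passed with Spearman's rho). Vim, Serpina3n, Lcn2, Cd44 and Osmr formed the 10 highest pairs, from r = 0.61 for Lcn2 with Osmr to r = 0.75 for Lcn2 with Cd44 (rho = 0.70, permutation p = 0.0064, adjusted p = 0.127). Those 5 genes are also the ones for which SCI + Vehicle replicate 7 was the lowest of its group.

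Leaving out the most extreme mice, a choice that by itself lowers r, reduced these values. The 2 mice farthest from the median of the first-named gene of each pair were left out, without regard to the second gene. SCI + Vehicle replicate 7 was among them for all 10 of those pairs. Then r fell from 0.75 to 0.47 for Lcn2 with Cd44, from 0.75 to 0.10 for Vim with Serpina3n, and from 0.73 to 0.30 for Serpina3n with Cd44. Without SCI + Vehicle replicate 7 alone the same 3 pairs had r = 0.51, 0.47 and 0.50. Within the 7 SCI + Atorvastatin mice, which do not include it, r was 0.45, 0.91 and 0.66, and it ran from 0.04 for Lcn2 with Osmr to 0.91 for Vim with Serpina3n over the 10 pairs. Within the 7 SCI + Vehicle mice the 10 pairs had r of 0.66 to 0.89. In that mouse 8 of 10 members were below the mean of SCI + Vehicle mice, all but Stat3 and Sox9, and its Lcn2 stood at -1.20 from that mean on the log2 scale. Its summed microglia or macrophage markers, 1834 TPM, were the lowest of all SCI mice, and its neuron and oligodendrocyte markers, 2918 and 18261 TPM, were the highest of them.

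Gfap itself followed no other member closely, with r between -0.20 for Stat3 and 0.48 for Nes. Stat3 had a negative r with each of the 9 others, down to -0.57 with Nes (rho = -0.54, permutation p = 0.067, adjusted p = 0.251). Its sign was not the same in every setting. Without SCI + Vehicle replicate 7, r was 0.25 with Osmr and 0.14 with Serpina3n, and negative with the others. Within SCI + Atorvastatin mice it was 0.06 with Gfap and 0.27 with Sox9, and negative with the others. Sox9 was negative with Vim (r = -0.41, rho = -0.47). With Osmr it was negative by r (-0.37) but not by rank (rho = 0.02). SCI + Vehicle replicate 1 was both the lowest SCI mouse for Sox9 and the highest SCI mouse for Osmr in normalized CPM.

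**Figure D4:**
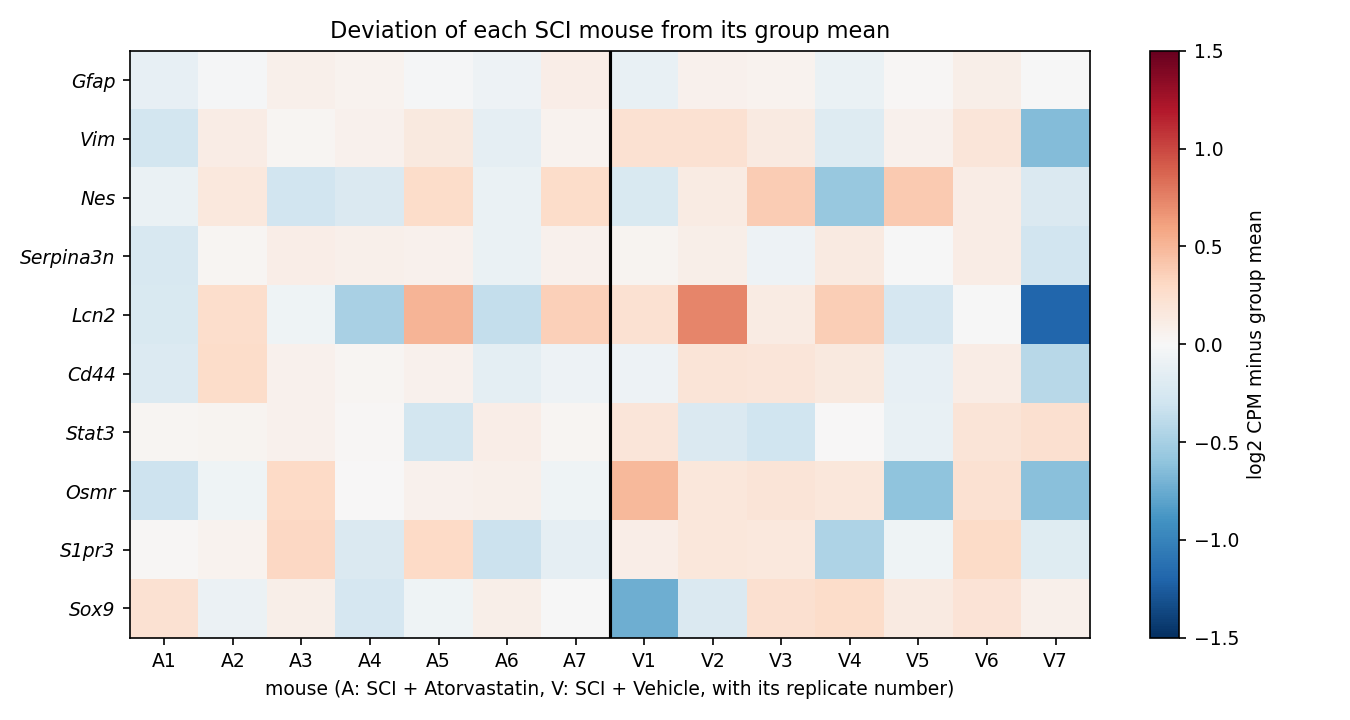
Deviation of each SCI mouse (columns) from the mean of its treatment group for each member (rows), in log2 CPM; blue is below and red above the mean. SCI + Vehicle replicate 7 is blue for Vim, Serpina3n, Lcn2, Cd44 and Osmr, while Gfap differs little between mice.

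**Figure D5:**
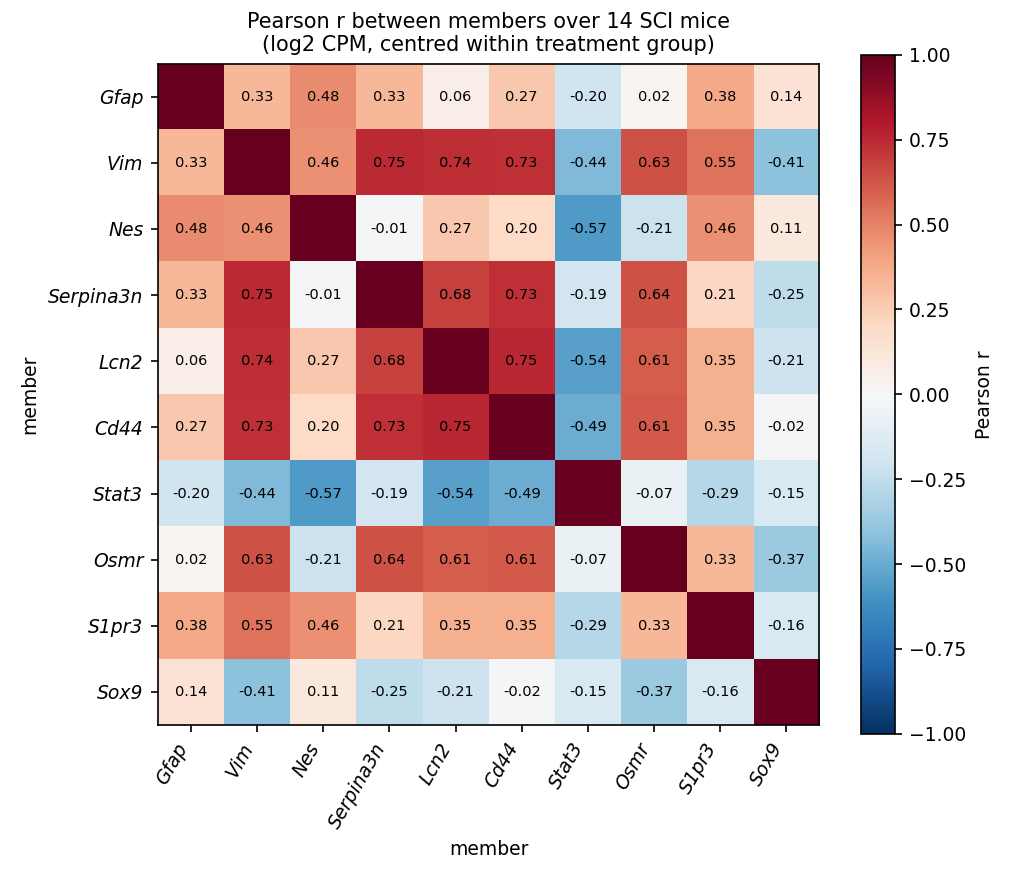
Pearson's r between each pair of members over 14 SCI mice, on log2 CPM centred within treatment group. Vim, Serpina3n, Lcn2, Cd44 and Osmr have r of 0.61 to 0.75 with each other, and the Stat3 row is negative throughout.

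By likeness of pattern over the same 14 SCI mice, the genes nearest to Gfap among 15931 were Nxn (r = 0.87, a regulator of redox signalling), Tcea3 (0.85), Traf4 (0.84), Ppp1r14b (0.83) and Axl (0.83, a receptor tyrosine kinase). No member was among the nearest, Nes coming first at rank 902. Nearest to the mean standardized value of the 10 members were Cyba (r = 0.94, a subunit of the phagocyte NADPH oxidase), Lamc1 (0.92, a laminin chain), Ptafr (0.91, the receptor for platelet-activating factor), Hist1h2ac (0.91) and Thbs2 (0.91, a matrix thrombospondin). These are descriptions over mice that share tissue composition and depth, with the highest values picked from all genes.

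The shares called in the lists that follow are read beside those of all genes tested, which were 19.8% higher and 9.55% lower in SCI + Vehicle mice, and 24.9% higher and 14% lower in SCI + Atorvastatin mice. A listed gene with no counts in the uninjured mice was tested only because it was high in an SCI group, so its call adds nothing to a count, and the same holds for S1pr3 among the members. Of 6 further genes of the set shared by reactive states, 3 were called higher in SCI + Vehicle and 4 in SCI + Atorvastatin mice. In each case 2 of them came from no counts in the uninjured mice. The medians over all 6 genes, those 2 included, were 2.02 and 2.33. Timp1, a metalloproteinase inhibitor, had no counts in Uninjured Control mice and was at least 53.4-fold higher in SCI + Vehicle mice (9.04 to 30.9 TPM), Cxcl10, a chemokine, was at least 11.3-fold higher, and Hspb1, a small heat shock protein, rose by 2.07 on the log2 scale, while Cp, ceruloplasmin, was called in SCI + Atorvastatin (1.31) and not in SCI + Vehicle mice (0.75). In the set called A1, first described after inflammation, 4 of 12 were called higher and 1 lower in SCI + Vehicle and 5 higher in SCI + Atorvastatin mice, with medians of 0.88 and 1.12; the SCI + Vehicle counts are near the shares of all genes. These were H2-D1 (1.61), Gbp2 (1.91), Ggta1 (4.29) and Psmb8 (3.80) in SCI + Vehicle mice, genes of antigen presentation and interferon response among them. The gene called lower was Ugt1a1, an enzyme of liver, with 7.68 TPM in Uninjured Control replicate 1 and 0 TPM in replicate 2.

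In the set called A2, first described after ischaemia, 10 of 12 genes were tested, and 7 of these were called higher in SCI + Vehicle and 8 in SCI + Atorvastatin mice, 5 of them in each case from no counts in the uninjured mice. All genes tested were called higher in 19.8% and 24.9% of cases. Counting genes at 0 in both uninjured mice at their lower bound, the medians were 3.87 and 4.12. Cd109, Cd14, Tgm1 and Ptx3, each with no counts in the uninjured mice, were at least 270-fold, 96.4-fold, 92.6-fold and 32.9-fold higher in SCI + Vehicle mice. Of the 12 listed genes 7 were at 0 in both uninjured mice, against 0 of the 12 A1 genes. Cd14 is also a surface protein of macrophages.

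Along the pathway that ends in Stat3, the shared receptor subunit rose and a partner subunit fell. Il6st, which encodes gp130, rose by 0.93 and 1.13 on the log2 scale (edgeR adjusted p = 0.00102 and 2.35e-05), from 50.9 and 69.3 TPM in the uninjured mice to a mean of 130.5 and 147 TPM. Cntfr, the receptor subunit for ciliary neurotrophic factor, was the member of that list called lower, at -0.80 and -0.95. The ligand genes Osm and Ctf1 had no counts in the uninjured mice and were at least 10.8-fold and 7.91-fold higher in SCI + Vehicle mice. In all, 6 of 16 tested genes of the list were called higher in SCI + Vehicle and 8 in SCI + Atorvastatin mice, with 1 lower in each, beside 19.8% and 24.9% of all genes called higher and 9.55% and 14% lower. Of those called higher, 3 and 4 had no counts in the uninjured mice. Il6 itself was listed at 0 TPM in every mouse and had at most 8 counts, in an SCI + Atorvastatin mouse.

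Around Cd44, 7 of 13 genes of hyaluronan metabolism and CD44 binding were called higher in both SCI groups (19.8% and 24.9% of all genes), 3 of them from no counts in the uninjured mice, and none lower. Spp1, the CD44 ligand osteopontin, rose by 1.99 and 2.18, Msn and Ezr, which tie CD44 to actin, by 1.51 and 1.66 and by 0.67 and 0.89, and Has1, a hyaluronan synthase, was at least 51.7-fold higher in SCI + Vehicle mice. Tmem2, a cell surface hyaluronidase, was the only listed pathway gene called between the treatments (0.52, unadjusted p = 0.00063), and it was not called with SCI + Vehicle replicates 4 and 7 left out. Around S1pr3, none of 8 tested genes of the sphingosine 1-phosphate pathway was called higher (19.8% and 24.9% of all genes), and the exporter Spns2 was called lower in both groups (-0.48 and -0.54). Of the other filament genes, 5 of 8 were called lower (9.55% and 14% of all genes) and none higher in either SCI group, all 5 of them filaments of neurons (Nefl, Nefm, Nefh, Prph and Ina, -0.64 to -1.10 in SCI + Vehicle mice). Of 6 general neuron markers, 3 and 4 were called lower too.

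Of 8 other transcription factors of astrocytes, 1, Hes1, was called higher in SCI + Vehicle mice (at least 24.3-fold, from no counts). In SCI + Atorvastatin mice Hes1 and Zbtb20 (0.77) were called higher, while Nfix (-0.58) and Sox8 (-0.48) were called lower. These counts are near the shares of all genes, 19.8% higher in SCI + Vehicle mice, and 24.9% higher and 14% lower in SCI + Atorvastatin mice. Among the 12 general astrocyte markers, 3 were called higher in each SCI group and 1 and 3 lower, with medians of -0.12 and -0.24 against 2.74 and 2.97 for the 10 members. Those called higher were Aqp4 (1.21 and 1.33), Slc1a3 (0.71 and 0.76) and Gja1 (0.36 and 0.39). Kcnj10 (-0.56 and -0.60) was called lower in both SCI groups, and S100b and Aldoc in SCI + Atorvastatin mice only. Of the partners of lipocalin-2, its receptor gene Slc22a17 was called lower in SCI + Atorvastatin mice (-0.58), and none of the 3 was called in SCI + Vehicle mice. Between the treatments, the listed genes with an unadjusted p below 0.05 and no call were Timp1, Cp, Aspg, Serping1, Ggta1, Emp1, Tm4sf1, Il6st, S1pr2, Ezr, Nfib and Hes1, all with positive differences (0.15 to 0.70), and Prph and Nefh, both with negative ones (-0.32 and -0.28). Of all genes tested, 7.03% reached that unadjusted limit. The smallest adjusted p of any gene was 0.680 by edgeR, so none of those listed passed after adjustment.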

How the data were processed

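RNA-seq libraries (a stranded SMARTer kit for low input) of 16 mouse spinal cords were analysed from the deposited counts and TPM tables. Per the study's methods and the submitters' processing notes, the authors used Trimmomatic 0.38 for trimming, STAR 2.5.4b for alignment to mm10 and RSEM 1.3.1 for TPM. The deposited counts are whole numbers, and how they were made from the RSEM output is not given in the sources used here. RSEM shares reads between similar genes, which can move values among paralogs. Total counts per library were 14823292 to 25579826.

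The 16091 of 24411 genes whose mean passed 1 TPM in any of the 3 conditions (144 of them with no counts in any mouse) were tested with edgeR 4.0.16 (TMM normalization, quasi-likelihood test, R 4.3.3), 1 pair of groups per fit, with Benjamini-Hochberg adjustment over all genes tested. Fold changes, their standard errors and 95% intervals come from these fits. Normalized CPM used TMM factors over all 16 libraries, and log2 CPM a prior count of 2. The alternatives were DESeq2 1.42.0, its size factors, other gene filters, all 3 groups in 1 fit, limma 3.58.1 on log2(TPM + 1), voom with group weights, a replicate block, and each mouse left out. The scripts were tested on simulated counts. Replicate numbers did not pair the SCI groups: no same-numbered pair had a correlation of deviations over 0.1. The labels call the mice biological replicates.

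The 10 members, the pathway and marker lists and the tests were chosen with earlier results of these data known. Named list genes are those called in either SCI group against Uninjured Control, up to the 4 per list with the smallest p in SCI + Vehicle mice, and those with an unadjusted p below 0.05 between the treatments. Ugt1a1, Serpina3k, Il6, S100a10, Ptgs2, Sphk1 and the astrocyte markers given as called were named after their values were seen. Floors and bounds from counts of 0 cover counting error only.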

Additional observations from a re-analysis of the deposited data

Results flagged for a closer look

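Among 20 sets of 7 mice, the 10 members in each SCI group, 1 held a mouse far from the others by Dixon's test (limit 0.568 at the 95% level); chance alone flags about 1 in 20 such sets. It was Stat3 in SCI + Atorvastatin replicate 5, at 112.5 normalized CPM, where the next lowest of the group had 137.9 and the gap made up 0.761 of the range of the group. The same mouse had the lowest Stat3 and the lowest Gfap of its group in TPM and the highest Lcn2.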

How the results depend on the processing

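The direction of the 10 members against Uninjured Control held in every alternative run, and the count of calls depended on how the spread of the 2 uninjured mice was treated. Voom with group weights called 2 members in SCI + Vehicle and 3 in SCI + Atorvastatin mice, and 0 and 1 genes of the pathway lists, against 9, 10, 35 and 43 in the fits reported. The replicate block, with numbers that do not pair the mice (r of same-numbered mice -0.150 to 0.0871, 0 of 7 best matched with their own number), called 1 and 0 members, 0 and 0 list genes, and 0 list genes between the treatments in place of 1; only 2 uninjured mice share a number with SCI mice. With TPM above 1 required in every condition, S1pr3 was not tested and 17 and 27 list genes were called. The Tmem2 call between the treatments was lost with all 3 groups in 1 fit (0 list genes) and with SCI + Vehicle replicates 4 and 7 left out (0, chosen after seeing the data). Leaving out single mice gave 8 to 10 members in SCI + Vehicle and 9 to 10 in SCI + Atorvastatin mice. Between the treatments 0 members were called in all 23 alternatives. The median r of the member pairs was 0.338 on log2(TPM + 1) against 0.205, and 0.159 to 0.305 without single mice. On log2(TPM + 1) the median change of all genes in SCI + Vehicle mice was 0.49 in place of 0.17, and that of the members 2.83 in place of 2.74. Calls over all genes ranged widely, from 16 with the replicate block and 132 by voom with group weights to 7806 without Uninjured Control replicate 2 in SCI + Vehicle, and from 0 and 145 to 9826 in SCI + Atorvastatin mice under the same settings; DESeq2 called 6000 and 7207. Between the treatments 17 genes were called, 37 by DESeq2, 1 with all 3 groups in 1 fit and 8 with voom or the replicate block. The cause of these differences was not tested. With 2 uninjured mice, genes at 0 in 1 of them (Lcn2, Osmr, Ggta1 and Psmb8 among others) have sizes that rest on the other mouse.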
